A study of Mus musculus with 56 samples.

Results

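The livers compared here came from mice that could eat only in the dark phase, and were taken either 8 h into the 12 h light phase, at zeitgeber time 8 (ZT8, hours after lights on), or 8 h into the 12 h dark phase, at ZT20. They make up 8 of the 56 liver libraries of the study, 4 at each time, and were picked by feeding regimen and time alone. All were C57BL/6J females obtained at 7 weeks of age, kept on 12 h of light per day with free food for 7 days, and sampled at 9 weeks after 7 more days of restricted feeding. Night-restricted feeding (NRF) left the ZT8 animals without food in their resting phase and the ZT20 animals with food in their active phase, so light, food, activity and clock time all differ between the groups and cannot be told apart within NRF. The regimens are compared with the 8 libraries of day-restricted feeding (DRF) at the same ZT8 and ZT20, in which food was given in the light. The other times of both regimens are shown for the course of the day, and all 56 libraries share 1 estimate of the spread. No source used here states that the 4 libraries of a group came from separate mice, so p-values measure the spread between these libraries. They hold RNA of whole liver, so for every gene fewer cells of a type and less RNA per cell cannot be told apart.

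The molecular clock of hepatocytes is a loop in which ARNTL (BMAL1) pairs with CLOCK or NPAS2 and switches on its own repressors, the PER and CRY proteins, and the nuclear receptors NR1D1 and NR1D2, which in turn repress Arntl. The same loop drives DBP, TEF and HLF, which activate genes through D-box sites, and the opposing repressor NFIL3. Feeding resets this loop in the liver, while insulin, glucagon, SREBP and PPARA signals switch the organ between storing sugar as glycogen and fat and releasing glucose and ketone bodies. A gene that is high at ZT8 under NRF is therefore high in a rested, fasted liver, and a gene that is low at ZT8 is high in an active, fed one.

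Values are scaled counts: whole counts rebuilt from the deposited gene values and brought to a common library scale, not divided by gene length, so levels are compared between samples and never between genes. In the 8 libraries 1 scaled count stood for 400 to 723 rebuilt counts, which are not single reads, since their totals of 371 to 688 M per library exceed the reads that the study's methods describe, and library totals lay between 883143 and 1009227 scaled counts. Differences are log2(scaled count + 1) at ZT8 minus ZT20, with their standard error, tested with limma over all genes. Pearson correlations over 13725 genes lay between 0.979 and 0.988 for libraries of the same group and between 0.955 and 0.968 for libraries of different groups, so no library stood with the other time.

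Of 19252 genes tested, 6921 passed an adjusted p of 0.05, which is 35.9% of them. Of these, 3962 (20.6% of genes tested) were higher at ZT8 and 2959 (15.4%) were lower. Differences of at least 2-fold were much rarer, with 513 genes or 2.66%, of which 265 (1.38%) were higher at ZT8 and 248 (1.29%) lower. The median size of a called difference was 0.44 on the log2 scale, and the median over all genes was 0.03. In 6712 genes (34.9%) the 4 values of one time lay wholly above the 4 of the other. The balance of the calls depended on scaling: 57.2% of them were higher at ZT8 on scaled counts, 53.4% after median-of-ratios scaling, 43.5% after a correction for exon length and 35.6% on the deposited values themselves. The count of genes that differed hardly moved, at 6948, 7219 and 6785 under those settings. Each of the 19 genes described next kept its direction and its call under all of these settings.

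The largest increases at ZT8 were led by Nr1d1, the REV-ERB alpha repressor of the clock (ENSMUSG00000020889, chr11:98767932-98775333, minus strand). Its scaled counts at ZT8 were 88.1, 86.9, 80.2 and 78.8, against 0.473, 0.485, 0.722 and 0.548 at ZT20, a 149.9-fold difference of the means (log2 5.76 ± 0.31, adjusted p = 2.9e-19). Dbp, the D-box activator at chr7:45705088-45710203, stood at 34.5, 37.2, 58.1 and 42.1 at ZT8 and at 1.25, 1.09, 1.09 and 1.45 at ZT20 (log2 4.28 ± 0.21, adjusted p = 3.5e-20). Neither gene came near overlapping between the times. The metallothioneins, small proteins that bind zinc and copper, moved together. Mt1 had 48.9, 31.8, 55.7 and 52.3 at ZT8 and 2.25, 2.64, 3.57 and 1.995 at ZT20, and Mt2 had 53.6, 38.2, 60.2 and 66.7 and 3.19, 3.18, 5.08 and 1.9 (log2 3.73 and 3.70, adjusted p = 3.9e-09 and 7.6e-08). All 4 libraries at ZT8 had more than 7 times the highest ZT20 value of the same gene. Exon bases of Mt2 overlap a gene on the opposite strand, Gm45774, over 73.5% of their length, and whether counting used strand is not given in the sources used here.

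Rgs16, which turns off G-protein signals and is known in liver as a fasting and refeeding gene, differed as well. It had 19.9, 13.5, 36.4 and 24.6 at ZT8 and 0.203, 3.15, 0.307 and 1.38 at ZT20 (log2 3.55 ± 0.47, adjusted p = 7.0e-08). The groups did not overlap, although the ZT20 libraries alone spanned more than 10-fold. Trib3, a pseudokinase that inhibits AKT, followed with 13.8 ± 2.88 against 1.09 ± 0.222 (SD, n = 4 each, log2 2.80 ± 0.26). Fbxo21 (8.59-fold by the means), the calcium sensor Syt1 (7.48-fold), the REV-ERB beta gene Nr1d2 (7.24-fold) and the glycerophosphocholine phosphodiesterase Gpcpd1 (7.05-fold) completed the 10 largest increases, with adjusted p between 1.4e-11 and 6.4e-18 for these genes and Trib3.

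Among decreases at ZT8 the clock again led. Arntl, the core activator at chr7:113207465-113314126, had 6.72, 6.26, 2.73 and 3.77 at ZT8 and 71.9, 77.5, 77.9 and 69.8 at ZT20, 15.2 times as much at ZT20 (log2 -3.74 ± 0.19, adjusted p = 3.5e-20). Cry1, at chr10:85131700-85185064 on the minus strand, had 14.9, 15.3, 17 and 19.3 and 154, 194, 204 and 189.6 (log2 -3.40 ± 0.19, adjusted p = 3.7e-18). Both were low in every ZT8 library and high in every ZT20 library. Tfrc, the transferrin receptor that brings iron into cells, went from 4.19, 3.35, 3.11 and 4.25 at ZT8 to 61, 45.7, 57.3 and 65.4 at ZT20 (log2 -3.62 ± 0.33, adjusted p = 9.5e-12). Chrna4, a nicotinic acetylcholine receptor subunit, had 0.42, 0.392, 1.24 and 0.366 at ZT8 and 17.8, 32.1, 8.34 and 16.8 at ZT20 (log2 -3.52 ± 0.47, adjusted p = 7.9e-08). It was low in every ZT8 library, with replicate 3 alone above 1.

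Of the other 6 largest decreases, 5 are described here: genes of glycogen and fat storage, a secreted protein and a tubulin. Ppp1r3b, which targets a phosphatase to glycogen and favours its synthesis, stood at 16.1 ± 3.88 at ZT8 and 157 ± 12.2 at ZT20 (SD, n = 4, log2 -3.23 ± 0.23). Pnpla3, a lipid droplet protein, was 14-fold and Thrsp, a lipogenic factor, 7.46-fold higher at ZT20 by the means. Tsku, a secreted protein, was 11-fold and Tubb2a 10.6-fold higher. Adjusted p for these 5 lay between 9.0e-07 and 2.9e-19, and none of them overlapped between the times.

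**Figure D1:**
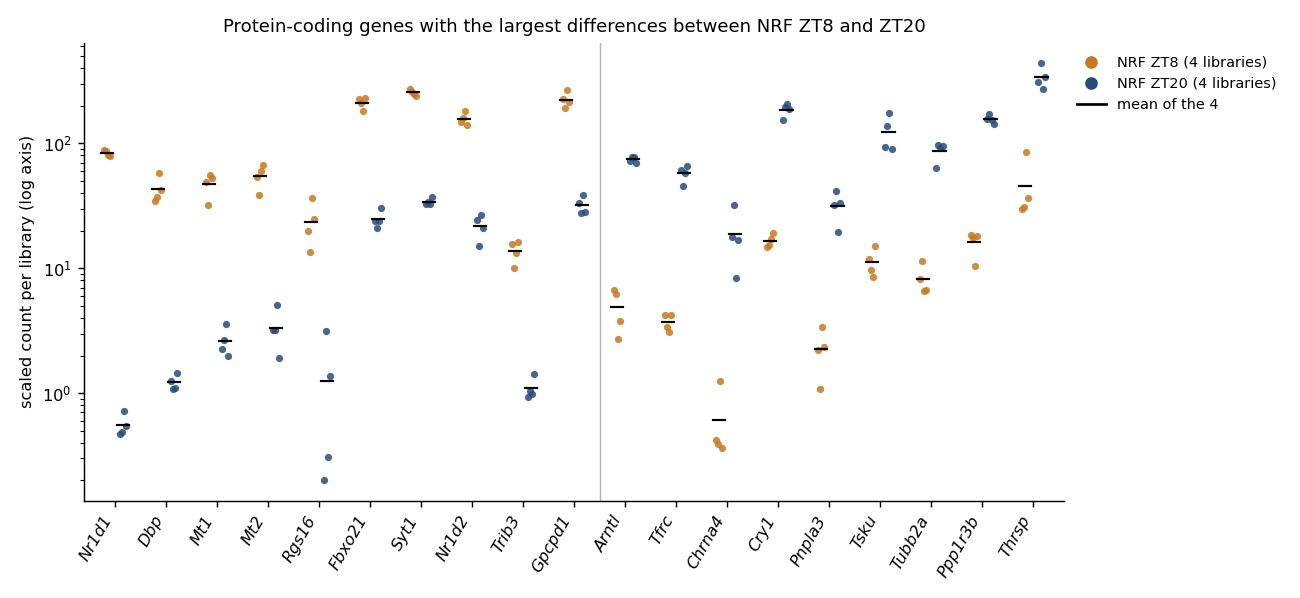
Scaled count in each of the 8 night-fed libraries (vertical log axis) for the 10 protein-coding genes with the largest increase at ZT8, left of the grey line, and 9 of the 10 with the largest decrease, right of it. Each point is a library and each black bar the mean of the 4, and in none of the 19 genes do the orange ZT8 points overlap the blue ZT20 points.

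Counts of list members given from here on are to be read against 20.6% of all genes higher and 15.4% lower at ZT8. Members and lists were chosen with earlier results of these data known, so a count above these shares is a description and not a test. The activators of the clock were lower at ZT8 throughout: all 5 of 5 listed genes passed. Beside Arntl, Npas2 had 0.304, 0.281, 0.202 and 0.227 at ZT8 and 1.78, 5.65, 2.54 and 3.27 at ZT20 (log2 -1.71 ± 0.17, adjusted p = 6.0e-11). Clock had 64.2, 69.5, 35.8 and 57 and 114, 103, 127 and 113 (log2 -1.04 ± 0.15, adjusted p = 5.9e-07), and was lowest in ZT8 replicate 3, as Arntl and Npas2 were. Rora changed least (log2 -0.30 ± 0.07, adjusted p = 0.0015). Its call was lost in the 8 libraries alone with the replicate number as a block (adjusted p = 0.053). The list's median difference was -1.71, against 0.03 over all genes.

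The repressors split. Of 10 tested, 5 were higher at ZT8 and 2 lower, and the 5 became 3 when genes with a mean under 1 scaled count were left out. Per2, a period protein, was lower with Cry1, at 14.9, 15.4, 25.6 and 20.2 at ZT8 and 75.3, 79.5, 63.4 and 54.2 at ZT20 (log2 -1.804 ± 0.26, adjusted p = 2.6e-07). Bhlhe41 (DEC2) had 1.98, 1.35, 2.71 and 1.92 at ZT8 and 0.12, 0.115, 0.109 and 0.0557 at ZT20 (log2 1.42 ± 0.10), and Ciart (CHRONO) 1.2 ± 0.356 and 0.295 ± 0.0497 (log2 0.75 ± 0.11). Both are thinly covered, and both were higher at ZT8 in 4 of 4 libraries. Per3 was higher as well (log2 0.82 ± 0.19, adjusted p = 7.7e-04, not called on the deposited values). Per1 stood at 9.47 ± 2.97 and 5.94 ± 1.04 (adjusted p = 0.098) and Cry2 at 42.5 ± 2.74 and 45.9 ± 1.88 (adjusted p = 0.43), and neither passed.

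Among 12 clock outputs 4 were higher at ZT8 and 3 lower. Nfil3, the repressor that opposes DBP at D-boxes, ran against it, with 12.7, 9.91, 12.2 and 11.7 at ZT8 and 44.8, 51.8, 51.1 and 56.2 at ZT20 (log2 -2.04 ± 0.16, adjusted p = 1.2e-13). Tef, a relative of DBP, differed far less, at 53.7 ± 9.49 and 33.9 ± 3.2 (log2 0.64 ± 0.18, adjusted p = 0.0043, not called on the deposited values), and Hlf did not pass (adjusted p = 0.13). Nampt, the rate-limiting enzyme of NAD salvage, was lower at ZT8 (log2 -0.86 ± 0.10) and Por, the electron donor of the cytochromes P450, higher (log2 0.61 ± 0.11). Elovl3, a fatty acid elongase, had 3.54, 4.05, 1.32 and 3.96 at ZT8 and 0.735, 0.708, 1.01 and 0.766 at ZT20 (log2 1.16 ± 0.26). Avpr1a, a vasopressin receptor, was lower at ZT8 (log2 -0.72 ± 0.16), a call lost in the 8 libraries with a replicate block (adjusted p = 0.061). Wee1, a mitotic kinase, stood at 15.3 ± 3.05 and 13 ± 1.32 and did not pass (adjusted p = 0.33).

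**Figure D2:**
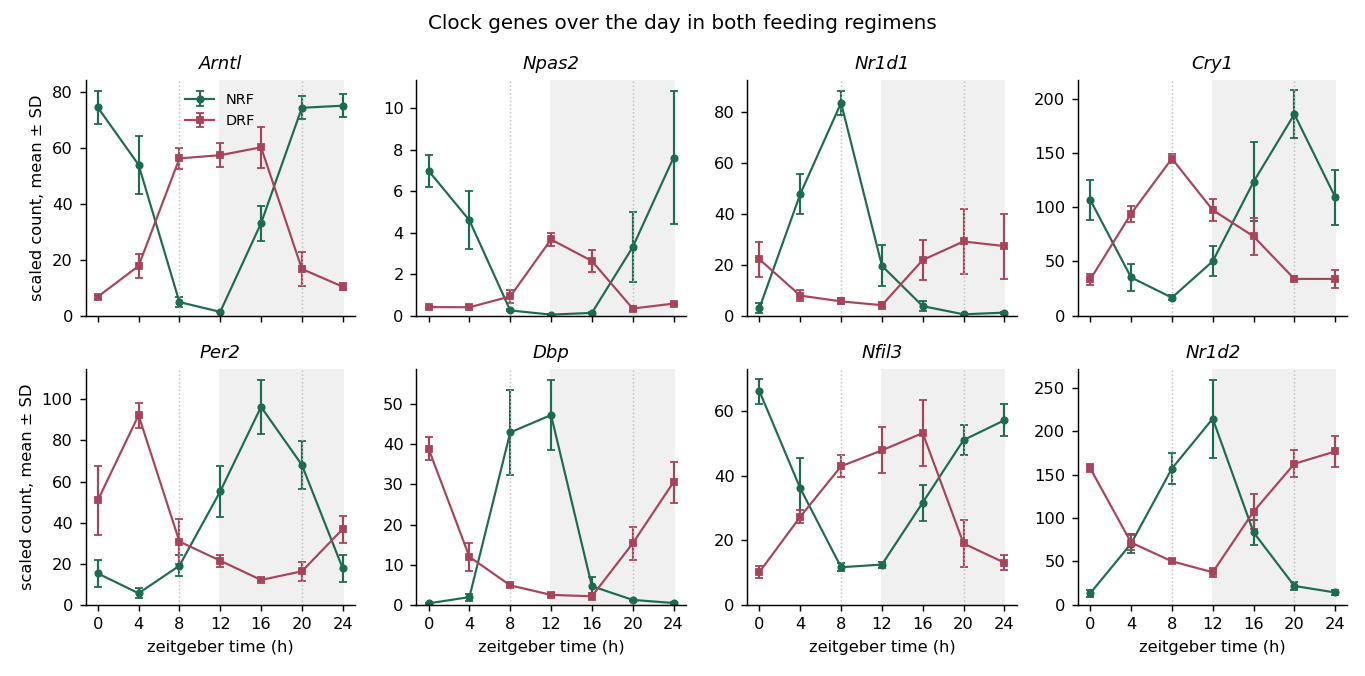
Scaled counts (mean ± SD of 4 libraries, vertical axis from 0) of 8 clock genes over 7 zeitgeber times (horizontal axis, hours) under NRF (green circles) and DRF (red squares), with ZT8 and ZT20 marked by dotted lines and the dark phase shaded. Under NRF Nr1d1 peaks at ZT8 and Cry1 at ZT20, and under DRF the order of ZT8 and ZT20 is turned round in each panel.

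The place of the 2 times in the NRF day is a description only, since the genes were chosen by the difference between these times. Of the 265 genes at least 2-fold higher at ZT8, 179 had their highest mean of the 7 NRF times at ZT8 and 148 their lowest at ZT20. Of the 248 lower at ZT8, 134 had their highest mean at ZT20 and 137 their lowest at ZT8. Nr1d2 had its highest mean at ZT12 and Per2 at ZT16, so for these genes the difference between ZT8 and ZT20 is not the full range of the day.

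Promoters of clock genes carry short elements through which the loop acts: the E-box bound by ARNTL with its partners, the RORE bound by REV-ERB and ROR receptors, and the D-box bound by DBP and NFIL3. The windows below, 250 bases before to 50 after a RefSeq start site on GRCm38.p6, are shown for 3 genes that were all high at ZT20. Only windows that hold a match are shown, and not all of those. All listed windows were searched on both strands for the E-box CACGTG, the RORE core TAGGTCA and the D-box TTANNTAA, and matches are in capitals. No match overlaps another motif in these windows. The windows lie at chr10:85185005-85185304 (minus strand), chr7:113207261-113207560 (plus strand) and chr13:52980990-52981289 (minus strand).
Cry1: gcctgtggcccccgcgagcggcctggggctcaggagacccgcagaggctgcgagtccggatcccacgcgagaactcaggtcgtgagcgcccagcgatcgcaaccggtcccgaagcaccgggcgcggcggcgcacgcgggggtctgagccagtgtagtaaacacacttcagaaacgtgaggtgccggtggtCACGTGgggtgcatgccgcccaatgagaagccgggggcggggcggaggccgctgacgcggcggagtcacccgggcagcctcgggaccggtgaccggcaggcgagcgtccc
Arntl: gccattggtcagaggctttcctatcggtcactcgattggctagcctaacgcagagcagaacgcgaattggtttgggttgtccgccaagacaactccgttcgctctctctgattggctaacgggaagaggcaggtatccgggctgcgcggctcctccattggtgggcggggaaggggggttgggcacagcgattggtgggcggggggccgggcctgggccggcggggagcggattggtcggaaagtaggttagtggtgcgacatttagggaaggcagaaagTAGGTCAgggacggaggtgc
Nfil3: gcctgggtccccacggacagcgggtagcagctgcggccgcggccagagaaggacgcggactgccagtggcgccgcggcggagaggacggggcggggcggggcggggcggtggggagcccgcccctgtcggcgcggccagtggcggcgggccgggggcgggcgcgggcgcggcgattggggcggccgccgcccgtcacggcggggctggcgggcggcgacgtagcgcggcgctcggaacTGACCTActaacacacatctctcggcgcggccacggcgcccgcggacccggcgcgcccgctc
The Cry1 window holds an E-box whose first base is 60 bases before the start site. The Arntl window holds a RORE core 30 bases after it, and the Nfil3 window one on the opposite strand, 12 bases before it. Matches of this kind are common and are a description of letters only: among 27025 genes with a listed promoter, 8.09% hold the E-box, 2.97% the RORE core and 6.93% the D-box. Among the 22 genes of the clock lists with an entry, 5 hold the E-box, 2 the RORE core and 2 the D-box. Clock, Npas2, Rora, Nampt and Avpr1a, also lower at ZT8, hold none of these motifs. Of genes higher at ZT8, Bhlhe41 and Ciart hold the E-box, Per3 the D-box and Tef both. Nr1d1, Nr1d2, Dbp and Por, higher as well, hold none. Of 170 genes at least 2-fold higher at ZT8 with an entry, 10% held the E-box, 2.35% the RORE core and 2.35% the D-box, and of 178 genes at least 2-fold lower the shares were 10.7%, 4.49% and 9.55%, against 10.9%, 2.57% and 4.88% of all tested genes with an entry.

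Transcripts of fatty acid synthesis were lower at ZT8 in 12 of 15 genes tested and higher in 1, with a list median of -1.26. Acly, which makes cytosolic acetyl-CoA, had 194, 277, 301.3 and 179 at ZT8 and 977, 1368, 779.8 and 1267 at ZT20 (log2 -2.20 ± 0.27, adjusted p = 1.7e-08). Fasn, the fatty acid synthase, had 121, 160.3, 177 and 116 and 714, 1323, 622 and 974 (log2 -2.61 ± 0.37, adjusted p = 2.7e-07). Every ZT20 library had more than 2 times as much of either transcript as any ZT8 library. Elovl6, which lengthens palmitate, fell to 21.1 ± 5.19 from 141 ± 39.4 (log2 -2.66 ± 0.31), and Srebf1, the gene of the lipogenic factor SREBP-1, to 147 ± 35.4 from 278 ± 20.9 (log2 -0.94 ± 0.20). Insig2, which holds SREBP in the endoplasmic reticulum, was lower as well (log2 -1.26 ± 0.19). Mlxipl, the glucose-sensing factor ChREBP, stood at 78 ± 7.43 and 99 ± 25.4 (adjusted p = 0.11). The gene that was higher was the citrate carrier Slc25a1 (log2 0.32 ± 0.10). Its call was lost on the deposited values, without ZT8 replicate 2 (adjusted p = 0.051) and without ZT20 replicate 1 (adjusted p = 0.062). Scd1, Fads2 and Gpam could not be rebuilt and are not analysed here.

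In the list of cholesterol synthesis and uptake 12 of 25 genes were lower at ZT8 and 1 higher, with a median of -0.31, beside 15.4% lower and 20.6% higher among all genes. ZT8 replicate 2 was the highest of the 4 ZT8 libraries in all 25 genes, against 24% of all genes tested. Without it 15 genes were lower and none higher, and the lower calls numbered 9 without ZT8 replicate 1, 3 or 4 or without ZT20 replicate 4. Insig1, the feedback sensor of sterols, had 176, 196, 159.8 and 141 at ZT8 and 323, 381, 267 and 362 at ZT20 (log2 -0.98 ± 0.18, adjusted p = 3.4e-05). Sc5d (log2 -0.61 ± 0.15) and Acat2 (log2 -0.54 ± 0.18), enzymes of the sterol and acetyl-CoA steps, were lower too. The call of Acat2 was lost without ZT8 replicate 1, ZT8 replicate 4 or ZT20 replicate 4 (adjusted p = 0.053, 0.067 and 0.085, respectively). It was also lost in the 8 libraries with a replicate block (adjusted p = 0.063). Sqle, the squalene epoxidase, overlapped between the times, at 45.2, 85.8, 19 and 46.8 and 84.9, 86.5, 81.7 and 105, and passed (log2 -1.03 ± 0.28, adjusted p = 0.0038). It did not pass in the 8 libraries alone, without or with a replicate block (adjusted p = 0.063 and 0.054). Nor did it pass without ZT8 replicate 3, where the difference was -0.64 (adjusted p = 0.063). Srebf2, the sterol-sensing factor, stood at 0.12 ± 0.13 (adjusted p = 0.53).

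Of 26 genes of fatty acid oxidation and ketogenesis 9 were higher at ZT8, 2 lower and 15 did not pass, with a median of 0.26, beside 20.6% higher and 15.4% lower among all genes. On the deposited values the calls were 3 higher and 5 lower, so the direction depends on the scaling. Cpt1a, the gate of fatty acids into mitochondria, had 185, 194, 154 and 187 at ZT8 and 72.5, 66.8, 72.8 and 79.9 at ZT20 (log2 1.29 ± 0.14, adjusted p = 3.1e-10). Bdh1, an enzyme of ketone bodies (log2 1.03 ± 0.14), the PPARA receptor gene (Ppara, log2 0.69 ± 0.14), the lipase inhibitor Angptl4 (log2 1.37 ± 0.32) and the fasting factor Creb3l3 (log2 0.45 ± 0.13) were higher. Pdk4, which shuts off glucose oxidation and is itself known as a fasting gene, was lower, with 5.6, 5.25, 2.23 and 3.33 at ZT8 and 14.3, 19.9, 19.8 and 27.8 at ZT20 (log2 -2.09 ± 0.32, adjusted p = 1.3e-06). Cpt2 and Slc25a20 did not pass (adjusted p = 0.47 and 0.28). On the deposited values Ppara and Creb3l3 were among those no longer called. The count of 9 fell to 4 among genes rebuilt with whole counts at the annotated length, and rose to 14 without ZT8 replicate 3. The first of these settings leaves genes out of the test, here and in the lists below. Its counts can therefore fall without a call being lost.

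The genes of glucose production and fasting signalling did not move as a block: 9 of 18 were higher at ZT8 and 4 lower, and the 9 became 3 on the deposited values. Pck1, which commits to gluconeogenesis, had 377, 393, 457 and 548 at ZT8 and 141, 73, 216 and 151 at ZT20 (log2 1.69 ± 0.35, adjusted p = 1.7e-04). G6pc, the last step that frees glucose, went against it, at 40.9, 68.2, 49.8 and 78.7 and 151, 215, 231 and 261 (log2 -1.85 ± 0.34, adjusted p = 2.2e-05). Neither gene overlapped between the times. Cebpb (log2 0.90 ± 0.18), Crtc2 (log2 0.53 ± 0.12), Ppargc1a (log2 0.51 ± 0.15) and Sesn1 (log2 0.50 ± 0.10), genes of the fasting and nutrient response, were higher at ZT8, the last 2 of them not on the deposited values, and Ddit4, an mTOR inhibitor, was lower (log2 -0.90 ± 0.21). Fbp1 did not pass (adjusted p = 0.18).

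Of 18 genes of glucose uptake, glycolysis and glycogen, 8 were lower at ZT8 and 2 higher. The 8 became 5 among genes rebuilt with whole counts at the annotated length, a setting that leaves genes out of the test. Beside Ppp1r3b, the glycogen-targeting subunit Ppp1r3c had 20.2, 15.7, 13.5 and 13.5 at ZT8 and 41.4, 49.2, 51.8 and 48 at ZT20 (log2 -1.55 ± 0.18, adjusted p = 5.2e-09). A further listed subunit, Ppp1r3g, had low means of 0.155 and 0.0167 and did not pass (log2 0.16 ± 0.34, adjusted p = 0.75). Gbe1, the glycogen branching enzyme, was lower (log2 -0.68 ± 0.14). Phka2, a subunit of the kinase that starts glycogen breakdown, was higher, with 95.7, 98.5, 90.7 and 94.6 at ZT8 and 64.3, 62.4, 59.1 and 58 at ZT20 (log2 0.63 ± 0.05, adjusted p = 5.0e-14). The glucose transporter Slc2a2 was higher by 0.43 ± 0.13, a call lost on the deposited values and in the 8 libraries with a replicate block (adjusted p = 0.056). Gckr and Pfkl did not pass (adjusted p = 0.81 and 0.18).

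The clearest change among 16 bile acid and sterol transport genes was in the cholesterol export pair that pumps sterols into bile. Abcg8 had 73.6, 86.3, 80.3 and 79.96 at ZT8 and 11.4, 10.8, 16.2 and 11 at ZT20 (log2 2.62 ± 0.18, adjusted p = 1.3e-15), and Abcg5 had 191, 201, 194 and 189 and 62, 57.2, 74.1 and 57.6 (log2 1.62 ± 0.14, adjusted p = 1.5e-12). Both were higher in every ZT8 library than in any ZT20 library. In all 4 genes of the list were higher at ZT8, 3 lower and 9 did not pass, or 2 higher and 5 lower on the deposited values, beside 20.6% higher and 15.4% lower among all genes, and the 3 became 1 in a fit of the 28 NRF libraries or when any of ZT8 replicate 1, ZT8 replicate 4, ZT20 replicate 2 or ZT20 replicate 4 was left out. Baat, which conjugates bile acids, was lower (log2 -0.77 ± 0.09) and the phospholipid pump Abcb4 higher (log2 0.54 ± 0.10, not called on the deposited values). Cyp7a1, the rate-limiting enzyme of bile acid synthesis, had 119.5, 172, 160.5 and 155 at ZT8 and 185, 241, 199 and 259.7 at ZT20. Its values did not overlap, yet with the spread taken over all 56 libraries it did not pass (log2 -0.54 ± 0.37, adjusted p = 0.27). Cyp8b1 and Cyp27a1 did not pass either (adjusted p = 0.55 and 0.99).

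**Figure D3:**
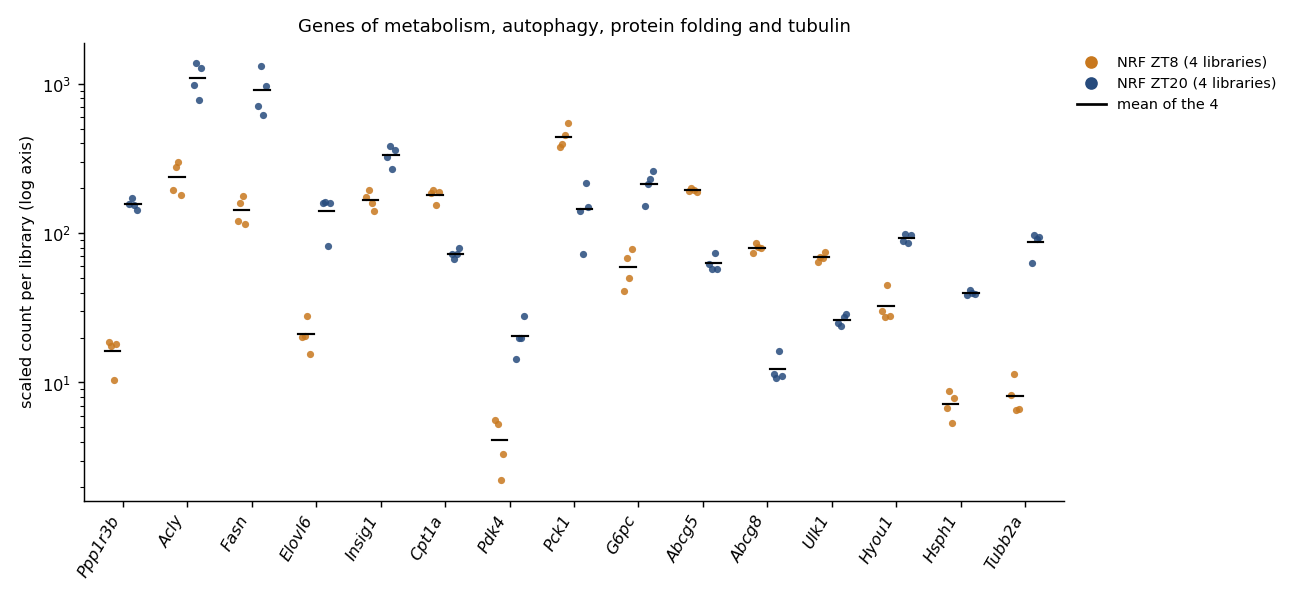
Scaled count in each of the 8 night-fed libraries (vertical log axis) for 15 genes of glucose, fat and sterol metabolism, autophagy, protein folding and tubulin. Orange ZT8 points lie above blue ZT20 points for Cpt1a, Pck1, Abcg5, Abcg8 and Ulk1, and below them for the other 10 genes.

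Genes of protein folding in the endoplasmic reticulum, chaperones and factors of the unfolded protein response, were lower at ZT8 in 12 of 19 cases and higher in 1, with a median of -0.50. Hyou1, a chaperone of the lumen, had 29.9, 27.6, 44.7 and 27.8 at ZT8 and 88.5, 98.6, 85.8 and 97.6 at ZT20 (log2 -1.51 ± 0.20, adjusted p = 8.6e-08). Dnajc3 had 288, 309, 309.6 and 266 and 509, 513, 483 and 512 (log2 -0.78 ± 0.10, adjusted p = 1.7e-08). ZT8 replicate 3 had the highest of the ZT8 values for both. Calreticulin (Calr, log2 -0.66 ± 0.13), calnexin (Canx, log2 -0.42 ± 0.07), Sdf2l1 (log2 -1.08 ± 0.22) and the disulphide isomerases Pdia3 (log2 -0.71 ± 0.13) and Pdia4 (log2 -0.50 ± 0.14) were lower. Hspa5 (BiP) had 64.4, 51.1, 54.5 and 60.9 and 79.3, 84.7, 89.6 and 89.1, without overlap, but did not pass (log2 -0.57 ± 0.24, adjusted p = 0.062). The spread in that test is the one shared by all 56 libraries.

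Of 16 heat shock and temperature-responsive genes 9 were lower at ZT8 and 2 higher, with a median of -0.77. The list holds chaperones of the cytosol, the mitochondrial pair Hspd1 and Hspe1, and Cirbp and Rbm3, which respond to cold and were the 2 that were higher. Hsph1, a nucleotide exchange factor of HSP70, had 6.72, 8.71, 5.32 and 7.83 at ZT8 and 38.4, 41.8, 39.5 and 38.9 at ZT20 (log2 -2.34 ± 0.31, adjusted p = 5.7e-08). Hsp90ab1 (log2 -1.01 ± 0.11), Chordc1 (log2 -1.603 ± 0.16), Hspb1 (log2 -1.57 ± 0.17) and Dnaja1 (log2 -0.90 ± 0.15) were lower as well. Cirbp, whose RNA is known to accumulate at lower body temperature, ran the other way, with 3.19, 4.43, 3.84 and 4.07 at ZT8 and 0.811, 0.793, 1.04 and 0.857 at ZT20 (log2 1.38 ± 0.19, adjusted p = 1.5e-07). The near-identical genes Hspa1a and Hspa1b, between which reads may be divided, did not pass (adjusted p = 0.59 and 0.38), nor did Hsf1 (adjusted p = 0.19).

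Ribosome biogenesis genes were lower in 11 of 20 cases and higher in 2, with a median of -0.38. Heatr1, a processome component, had 22.8, 23.8, 22.4 and 24.8 at ZT8 and 36, 48, 36.7 and 40.4 at ZT20 (log2 -0.75 ± 0.13), and Wdr12, of the 60S assembly, 3.69, 3.96, 3.32 and 3.72 and 5.53, 5.53, 5.43 and 5.3 (log2 -0.47 ± 0.09). Bop1 (log2 -0.46 ± 0.10), Nop56 (log2 -0.46 ± 0.11), Nop58 (log2 -0.66 ± 0.15) and the polymerase I subunits Polr1a (log2 -0.41 ± 0.11) and Polr1b (log2 -0.36 ± 0.11) were lower. Ubtf, the polymerase I activator, was higher at ZT8, at 16.6 ± 0.732 against 11 ± 0.927 (log2 0.56 ± 0.09, adjusted p = 1.7e-06), and Myc did not pass (adjusted p = 0.91).

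Genes of amino acid breakdown and the urea cycle were lower in 11 of 20 cases and higher in 1, with a median of -0.34. The 11 became 4 among genes rebuilt with whole counts at the annotated length, a setting that leaves genes out of the test. Cps1, the entry enzyme of the urea cycle, had 12438, 12112, 16791 and 11157 at ZT8 and 23336, 26342, 24306 and 22609 at ZT20 (log2 -0.90 ± 0.16, adjusted p = 1.3e-05). Asl, its last-but-one step, had 230.2, 246, 304 and 231 and 522, 665, 563 and 602 (log2 -1.22 ± 0.16, adjusted p = 3.5e-08). Both genes sat lower in all 4 ZT8 libraries. Tat, the tyrosine aminotransferase (log2 -1.29 ± 0.24), Ddc (log2 -1.69 ± 0.14), the ornithine carrier Slc25a15 (log2 -0.89 ± 0.12), Nags (log2 -0.67 ± 0.11), Ass1 (log2 -0.74 ± 0.20) and Otc (log2 -0.25 ± 0.08) were lower too. The call of Otc was lost in the 8 libraries alone, without or with a replicate block (adjusted p = 0.061 and 0.15). It was also lost in the 28 NRF libraries (adjusted p = 0.085) and without ZT8 replicate 4 (adjusted p = 0.11) or ZT20 replicate 4 (adjusted p = 0.080). Arg1 did not pass (adjusted p = 0.1).

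Glucocorticoid responsive genes gave no common direction, with 3 of 10 higher at ZT8 and 1 lower, near the 35.9% called among all genes. Klf9 had 36, 36.5, 34.3 and 35.3 at ZT8 and 11.6, 11.7, 13.9 and 11.3 at ZT20 (log2 1.48 ± 0.15, adjusted p = 8.2e-11), beside the metallothioneins. Tsc22d3 (GILZ) had 89.9, 86.9, 89.5 and 141 and 224, 304, 339 and 315, the opposite order (log2 -1.54 ± 0.23, adjusted p = 7.6e-07). Fkbp5, Sgk1, Zbtb16, Lcn2 and the receptor Nr3c1 did not pass (adjusted p from 0.11 to 0.77). Of 10 immediate early genes, which respond to stimulation and handling within minutes, 4 were lower and 1 higher at ZT8. Junb was the one that was higher, with 13.1, 13.6, 21.9 and 12.3 at ZT8 and 1.04, 3.02, 5.17 and 3.86 at ZT20 (log2 1.999 ± 0.38), and Atf3 (log2 -1.39 ± 0.32), Fosl2 (log2 -0.74 ± 0.13), Btg2 (log2 -0.87 ± 0.20) and Dusp1 (log2 -1.10 ± 0.35) were lower. The call of Dusp1 was lost without ZT8 replicate 2 (adjusted p = 0.061) or ZT20 replicate 2 (adjusted p = 0.064). Fos, Jun, Ier2 and Egr1 did not pass (adjusted p from 0.40 to 0.87), and each of these 4 was highest in ZT20 replicate 2.

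Autophagy genes were higher in 4 of 14 cases and lower in 1, a share called near the 35.9% of all genes. Ulk1, the starting kinase, had 63.9, 69.4, 68.2 and 75.1 at ZT8 and 25.2, 23.7, 27.4 and 28.9 at ZT20 (log2 1.36 ± 0.13, adjusted p = 2.6e-11). Wipi1 (log2 1.001 ± 0.14), Atg14 (log2 0.54 ± 0.10) and Bnip3 (log2 0.77 ± 0.25, not called on the deposited values) were higher, and the lysosomal Lamp2 lower (log2 -0.21 ± 0.07). The call of Bnip3 was lost without ZT20 replicate 3 (adjusted p = 0.10) and that of Lamp2 without ZT8 replicate 4 (adjusted p = 0.080). Lamp2 was also not called in the 8 libraries with a replicate block (adjusted p = 0.11). Becn1, Atg5 and Tfeb did not pass (adjusted p from 0.58 to 0.82). Of 14 drug metabolism genes 4 were lower and 1 higher, again a share near that of all genes. Cyp2b10, a target of the CAR receptor, had 87.7, 54, 122 and 46 at ZT8 and 317, 404, 459 and 355 at ZT20 (log2 -2.39 ± 0.37, adjusted p = 1.7e-06). Its CAR and PXR receptors Nr1i3 and Nr1i2 did not pass (adjusted p = 0.21 and 0.092), while Cyp2e1 was higher (log2 0.67 ± 0.13, not called on the deposited values). The lower calls of this list numbered 8 on the deposited values, 7 after length correction and 2 in the 8 libraries with a replicate block or among genes rebuilt with whole counts at the annotated length.

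Tubulins, the subunits of microtubules, were lower at ZT8 in 9 of 10 genes, with a median of -1.17. Tubb2a had 8.2, 11.3, 6.54 and 6.64 at ZT8 and 63.2, 97.2, 91.6 and 94.9 at ZT20 (log2 -3.27 ± 0.17, adjusted p = 2.9e-19), and its near-identical neighbour Tubb2b, between which reads may be divided, 0.957, 1.3, 0.741 and 0.896 and 7.35, 11.4, 11.1 and 11.2 (log2 -2.50 ± 0.28, not called on the deposited values). Tuba1c had 28.6 ± 5.52 and 101 ± 13 (log2 -1.79 ± 0.19). Tubb4b (log2 -1.24 ± 0.14), Tuba4a (log2 -1.23 ± 0.16), Tuba8 (log2 -1.10 ± 0.16), Tuba1a (log2 -0.93 ± 0.12) and Tuba1b (log2 -0.62 ± 0.12) were lower. Tubb5 did not pass (log2 -0.09 ± 0.12, adjusted p = 0.58).

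Cell cycle genes were higher in 6 of 12 cases and lower in 1, and rested on few libraries. Mki67, a marker of dividing cells, had 10.2, 2.7, 2.25 and 5.67 at ZT8 and 1.35, 2.17, 2.24 and 1.4 at ZT20 (log2 0.99 ± 0.31, adjusted p = 0.011), and Top2a had 8.78, 2.59, 2.39 and 5.03 and 1.46, 2.59, 2.89 and 1.85 (log2 0.72 ± 0.28, adjusted p = 0.038). Replicates 1 and 4 at ZT8 were high for both, and for Ccna2 and Ccnb1, while the other ZT8 libraries lay within or close to the ZT20 range. Without ZT8 replicate 1 the list held 3 higher calls (Mki67 adjusted p = 0.11, Top2a 0.26), as it did on the deposited values or among genes with a mean of at least 1, and in a fit of the 8 libraries alone it held 2. Both calls were also lost in the 8 libraries alone (adjusted p = 0.066 and 0.13) and there with a replicate block (adjusted p = 0.11 and 0.20). That of Top2a was lost in the 28 NRF libraries (adjusted p = 0.076). Top2a was also not called without ZT8 replicate 4, ZT20 replicate 1 or ZT20 replicate 4 (adjusted p = 0.10, 0.13 and 0.079). Ccnd1 (log2 0.95 ± 0.27) and Ccne1 (log2 0.35 ± 0.09) were higher, and Cdkn1a, the p21 inhibitor of cycling, lower, with 0.501, 0.255, 0.267 and 0.455 at ZT8 and 0.888, 2.67, 1.95 and 1.9 at ZT20 (log2 -1.02 ± 0.24, adjusted p = 6.6e-04). Pcna and Cdk1 did not pass (adjusted p = 0.72 and 0.27).

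**Figure D4:**
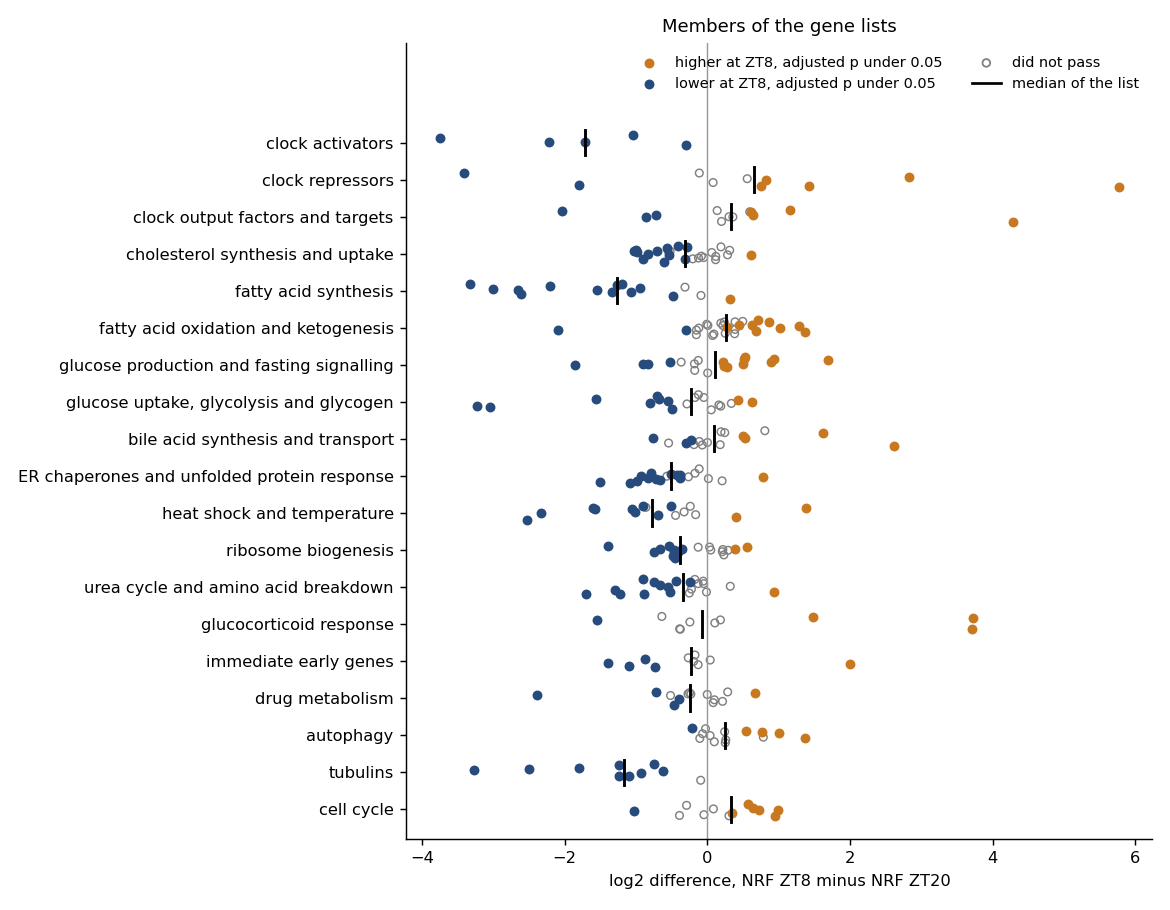
Log2 difference, ZT8 minus ZT20 under NRF, of every tested member of 19 gene lists, with called genes filled (orange higher, blue lower at ZT8), the others open, and the list median as a black bar. Clock activators, fatty acid synthesis and tubulins have medians of -1.71, -1.26 and -1.17, and the other lists lie between -0.77 and 0.66.

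Hepatocyte markers were abundant in all 8 libraries, where 6 of them summed to between 96116 and 116750 scaled counts. Summed markers were 737 to 932 at ZT8 and 669 to 810.1 at ZT20 for Kupffer cells, 855 to 988 and 812 to 982 for stellate cells, 23.3 to 30.1 and 21.7 to 35.7 for cholangiocytes, 16.2 to 23.5 and 19.5 to 26.2 for lymphocytes, and 614 to 1351 and 504 to 879 for red cells. These sums overlapped between the times. The sum of 8 sinusoidal endothelial markers did not, with 506 to 582 at ZT8 and 427 to 495 at ZT20 (exact two-sided permutation p = 0.0286, the smallest 4 against 4 allow, and 0.20 adjusted over 7 lists). Exact p for the other sums lay between 0.11 and 0.91. No tested marker was at 0 in any of the 8 libraries. Of single markers, Apoa1 (log2 0.98 ± 0.25), Cd5l (log2 0.82 ± 0.17), Stab2 (log2 0.39 ± 0.07), Cd79a (log2 0.49 ± 0.14) and Cd79b (log2 0.35 ± 0.10) were higher at ZT8, and Hnf4a (log2 -0.47 ± 0.09), Krt19 (log2 -1.04 ± 0.16), Sox9 (log2 -0.52 ± 0.12) and Cftr (log2 -0.60 ± 0.22) lower. The part of the cell mixture in the results above was not tested.

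Long noncoding RNAs were tested in 2535 cases, and 639 were higher and 173 lower at ZT8. Called genes made up 32.0% of the lncRNAs and 38.4% of the 14171 protein-coding genes. The largest increases were in AC127342.1 (31.5, 45.2, 4.51 and 28.1 at ZT8 and 1.15, 0.685, 1.89 and 0.858 at ZT20), Gm14097 (14.5, 16.2, 20.4 and 18.6 and 0.993, 1.07, 1.73 and 0.941) and Rapgef4os1 (10.3, 10.9, 25.3 and 14.8 and 1.98, 0.35, 1.05 and 1.38). The largest decreases were in Gm45355 (0.293, 0.848, 0.667 and 0.256 and 4.54, 8.38, 6.51 and 7.92), Gm45469 (1.36, 1.32, 0.821 and 1.73 and 8.08, 10.3, 8.53 and 9.16) and AC157910.3 (12, 8.18, 2.94 and 8.55 and 61.1, 27.5, 39 and 17.3). None of the 6 overlapped between the times, and adjusted p ran from 2.8e-05 to 6.4e-13 for the decreases and from 1.9e-06 to 7.8e-15 for the increases. Gm45355 (chr7:113292944-113295337, minus strand) lies within the span of Arntl on the other strand and shares 11.1% of its exon bases with it, so unless counting used strand those reads cannot be told apart from reads of Arntl, which was also lower at ZT8. Gm45469 (chr8:35367750-35376392, minus strand) overlaps the span of Ppp1r3b but none of its exon bases.

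Under DRF the same clock times find the animals fed in the light and unfed in the dark. The change from ZT20 to ZT8 differed between the regimens for 5243 genes, 27.2% of those tested (limma interaction). Of the 6921 genes called under NRF, 3738 differed between regimens, 3073 of them with opposite signs under DRF and 665 with the same sign. These genes were chosen by the NRF difference, which also enters the interaction. Counted by their own DRF test, 1287 were called in the opposite direction, 1099 in the same direction and 4535 were not called. Among the 513 genes with at least 2-fold differences the figures were 213, 37 and 263, and 434 differed between regimens. Of all 19252 genes tested, 4880 were called under DRF, 2375 of them higher and 2505 lower at ZT8.

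All 19 of the genes described above as having the largest differences under NRF had the opposite sign under DRF. Nr1d1 stood at 5.62 ± 1.2 at ZT8 and 29.1 ± 12.7 at ZT20 under DRF, and the regimens differed by 7.89 ± 0.43 on the log2 scale (adjusted p = 5.5e-19). Rgs16 stood at 0.437 ± 0.46 and 19.6 ± 12.8 (difference 7.14 ± 0.67, adjusted p = 9.1e-12), Mt2 at 7.26 ± 0.424 and 62.2 ± 30.9 (difference 6.52 ± 0.70). Each of these was higher at ZT20 under DRF. In the other direction Tfrc stood at 48.7 ± 11.9 at ZT8 and 5.99 ± 1.33 at ZT20 (difference -6.44 ± 0.47, adjusted p = 9.2e-15) and Tubb2a at 62.1 ± 8.93 and 10.46 ± 1.16 (difference -5.72 ± 0.25, adjusted p = 1.8e-22). The DRF difference of each of the 19 passed its own test.

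Counts of list members whose regimens differed stand beside 27.2% of all genes and 54.0% of the genes called under NRF. The NRF difference enters the interaction, so the second share is the closer one for lists of mostly called genes. Differences between lists were not tested. Counts of members called under DRF stand beside 4880 of all 19252 genes. Among the 6921 genes called under NRF, 1287 were called in the opposite direction under DRF and 1099 in the same. Regimens differed in 9 of 10 tubulins, 12 of 15 fatty acid synthesis genes and 15 of 25 cholesterol genes. They also differed in 15 of 19 genes of endoplasmic reticulum chaperones and the unfolded protein response. Of the 13 genes of this last list called under NRF, 11 were called in the opposite direction under DRF and none in the same. In ribosome biogenesis regimens differed in 6 of 20 genes, and in the urea cycle and amino acid list in 7 of 20, near the share of all genes. In the latter list 5 of the 12 genes called under NRF were called in the same direction under DRF. Cps1 had a difference of -0.79 under DRF and Slc25a15 one of -0.51, beside -0.90 and -0.89 under NRF (interaction adjusted p = 0.77 and 0.093). G6pc stood at -0.75 under DRF and did not pass there (adjusted p = 0.097, interaction adjusted p = 0.081), while Pck1 turned to -1.58 (interaction adjusted p = 1.2e-06). Hsph1 and Chordc1 stood at -0.14 and -0.25 under DRF (adjusted p = 0.79 and 0.29), and both differed between regimens.

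Among all genes, 3962 were called higher and 2959 lower at ZT8 under NRF, and 2375 and 2505 under DRF. The genes that kept their direction in both regimens numbered 590 higher and 509 lower at ZT8, a count not tested against unrelated calls. Of the 5 largest that were higher, 4 are given: Sort1, a sorting receptor for lipoproteins (log2 1.603 under NRF and 0.93 under DRF), Tnfrsf19 (1.58 and 0.41), Tnfsf12 (1.17 and 0.65) and Gm10322 (1.13 and 0.72). The largest that were lower were Acmsd, which diverts tryptophan breakdown away from NAD (-2.48 and -0.94), Cyp2b10 (-2.39 and -1.01), the nicotinamide methyltransferase Nnmt (-1.74 and -1.15), the inositol carrier Slc5a3 (-1.35 and -0.61) and Insig2 (-1.26 and -0.81). They are ranked by their NRF difference, so its size beside the DRF one is no comparison. The interaction passed for Tnfrsf19, Acmsd, Cyp2b10 and Slc5a3 (adjusted p = 3.0e-05, 3.5e-04, 0.045 and 0.019). The DRF calls of Gm10322 and Tnfrsf19 were lost on the deposited values, and those of Tnfrsf19 and Cyp2b10 without the filter on low genes. That of Gm10322 was also lost after length correction and in the 16 libraries with a replicate block (adjusted p = 0.073 and 0.053).

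**Figure D5:**
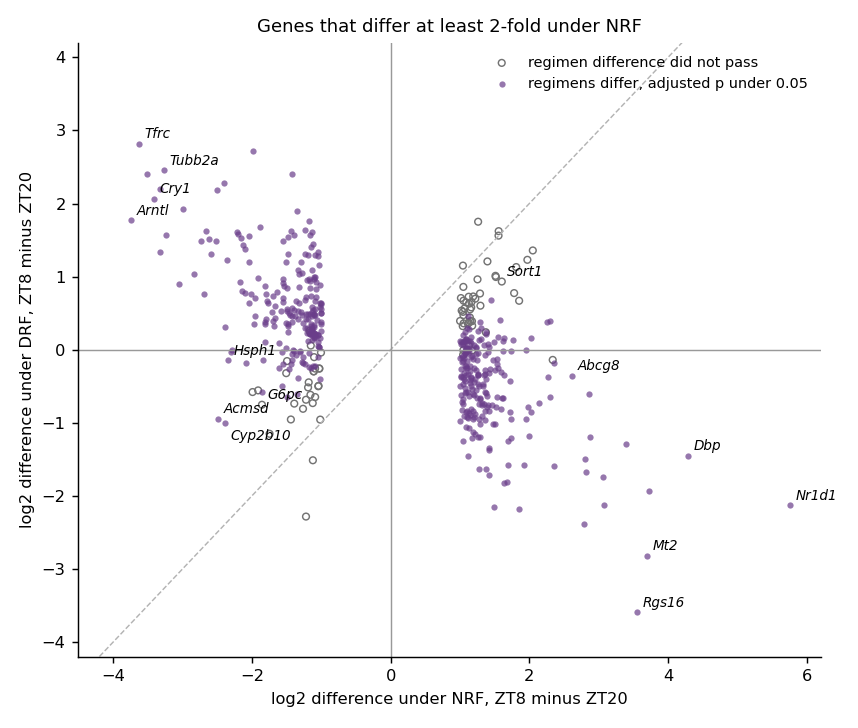
Log2 difference between ZT8 and ZT20 under NRF (horizontal) and DRF (vertical) for genes that differed at least 2-fold under NRF, filled where the regimens differed (434 genes) and open where that test did not pass, with the line of equal change dashed. Nr1d1, Dbp, Mt2 and Rgs16 lie at lower right and Tfrc, Tubb2a, Cry1 and Arntl at upper left, and 2 miRNA genes at -8.76 and -6.87 on the horizontal axis fall outside the frame.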

How the data were processed

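Liver RNA, named polyA in the labels, was by their protocol depleted of ribosomal RNA, made into strand-marked libraries and sequenced as paired reads. Per the submitters' processing notes the tools were CASAVA 1.8 and featureCounts 1.5.0-p3 and the builds mm10 and GRCm38.p6. The strand setting of counting is not given in the sources used here. The authors deposited 1 score per gene and library, with 56 columns, all assigned to samples by regimen, hour and replicate. In each library that score times the exon length followed a library factor times the natural log of 1 plus a scaled whole count, so the counts were rebuilt from it. Of 25415 genes listed 25263 were rebuilt and 152 left out, 22894 of them with whole counts (tolerance 0.05) at the annotated length, 145 within 0.2, 2083 at a length found on the values and 141 too deep to judge. Over values of up to 100000 counts, 99.8 to 100% were whole, depending on their size. Their totals, 371 to 688 M per library, exceed the reads that the study's methods describe, so a rebuilt count is not a single read. How the 2 relate is not given in the sources used here, so no count model was used and no interval for counting error is given. Transcript and circular RNA tables were not used here, and some genes that the naming rule picked are not reported here.

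Genes with a mean of at least 0.1 scaled count over all 56 libraries were tested on log2(scaled count + 1) with limma 3.58.1 in R 4.3.3, as 14 group means with a trended prior (42 residual degrees of freedom), Benjamini-Hochberg over all genes, two-sided. A fold on this scale understates changes of low genes. The fit was run on simulated data with known changes. These were drawn as independent libraries with the spread of each gene, so the run cannot show whether the real libraries meet those conditions. Named genes are the 10 protein-coding genes with the largest calls in each direction, with a mean of at least 1 over the 8 libraries and no overlap, 3 lncRNAs and 5 genes per direction for the regimen comparison, and of each list the 6 members with the smallest adjusted p and 3 more in list order. Members and lists were chosen with earlier results of these data known. Alternatives covered scaling, pseudocount, filter, exon length, the libraries fitted, a replicate block and leaving out each library.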

Additional observations from a re-analysis of the deposited data

Results flagged for a closer look

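The change from ZT20 to ZT8 differed between night and day feeding in 5243 genes by the interaction test. The 10 genes named for it, 5 in each direction, had log2 differences between the regimens of 7.89 (Nr1d1), 7.14 (Rgs16), 6.52 (Mt2), 5.73 (Dbp), 5.66 (Mt1), -6.44 (Tfrc), -5.93 (Chrna4), -5.72 (Tubb2a), -5.53 (Pnpla3) and -5.52 (Arntl).

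In 28 of 376 groups of 4 libraries examined (named genes and marker sums), the highest or lowest library stood apart from the other 3 by more than Dixon's 95% critical value for the gap over the range, and chance does so in about 1 in 20 groups. ZT8 replicate 3 was the library concerned 9 times, high for Chrna4 (1.24 scaled counts), Thrsp (85.3), Junb (21.9) and Hyou1 (44.7) and low for Polr1b (9.16), Creb3l3 (147), Ppp1r3b (10.4), Hlf (35.2) and Ahr (71.4). ZT20 replicate 3 stood apart 6 times, high for Gm14097 (1.73), Abcg8 (16.2) and Klf9 (13.9) and low for Elovl6 (81.6), Cyp3a11 (2012) and Dnajc3 (483). ZT20 replicate 2 was high for Jun (4.49), Chordc1 (21.04) and Egr1 (32.4). ZT20 replicate 1 was low for Tubb2a (63.2) and Tubb2b (7.35), and ZT20 replicate 4 for Dnaja1 (77.6) and Bhlhe41 (0.0557). ZT8 replicate 4 was high for Tsc22d3 (141), Klb (110.7) and Hspa1b (1.13). ZT8 replicate 1 was high for Nop58 (3.82), and ZT8 replicate 2 was low for Ddit4 (0.699) and high for the summed stellate cell markers (988).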

How the results depend on the processing

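The number of genes that differed lay between 5396 and 7219 over all alternatives, against 6921, and the number with a regimen difference between 4439 and 5346, against 5243. Genes higher at ZT8 numbered 2414 on the deposited values, against 3962, and the genes that differed at least 2-fold 1257 with a pseudocount of 0.1 and 226 with a pseudocount of 5, against 513. Leaving out each library in turn gave 5858 to 6778 genes, 3178 to 3872 higher and 2497 to 2906 lower at ZT8, 502 to 590 at least 2-fold and 4847 to 5087 with a regimen difference. With the replicate number as a block, 5396 genes were called in the 8 libraries alone (6317 without it), and 5138 regimen differences in the 16 (5346 without it). Same-numbered libraries are matched here only by the number in their titles, and what else they may share was not tested. Their deviations correlated by 0.08, 0.05, -0.02 and 0.01, and not every library correlated best with its own number. Restricting the test to genes rebuilt with whole counts at the annotated length, chosen after seeing the data, gave 6302. That restriction removes genes, so a lower count under it is not a count of lost calls. Of 209 single-gene results over 3913 alternatives, 1 was reversed, Pcx (-0.0167 on the deposited values, against 0.23), and 35 of 169 called ones lost the threshold at least once. A further 18 that were not called passed it under at least 1 alternative. Of 722 list counts over the alternatives 24 moved by more than 1.5 times. Log2 difference and exon length had a Spearman rho of -0.18 over 13761 genes, given as a description. Precision is limited by 4 libraries per time, and low genes by depth.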

Other observations

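Of 6 abundant structured RNAs made by RNA polymerase III, singled out after their values were seen, 5 passed as higher at ZT8 under NRF, and in 4 of them the times did not overlap. Rn7sk, the 7SK RNA that holds back the elongation factor P-TEFb, had 2302, 2111, 2028 and 2263 scaled counts at ZT8 and 507, 665, 506 and 858 at ZT20 under NRF (limma log2 1.81 ± 0.44, adjusted p = 9.9e-04). Rpph1, the RNA of ribonuclease P, had 915, 735, 884 and 1094 and 350.1, 224, 104 and 331 (log2 1.97 ± 0.37, adjusted p = 3.8e-05). Rn7s1, a 7SL RNA of the signal recognition particle, had 3541, 3959, 3387 and 3737 and 2366, 1789, 1088 and 1994 (log2 1.07 ± 0.28), and Rmrp, the RNA of ribonuclease MRP, differed by 0.96 ± 0.29. In these 4 genes the 4 ZT8 libraries lay above the 4 ZT20 libraries, and ZT20 replicate 3 was lowest. Rn7s2, another 7SL RNA, passed with overlapping values, 1337, 2623, 2142 and 2369.8 at ZT8 and 408, 302, 229.5 and 2121 at ZT20 (log2 2.05 ± 0.56, adjusted p = 0.0036). Rn7s6, with 4153, 2947, 1889 and 3253 and 1391, 1409.9, 848 and 2253, overlapped and did not pass (log2 1.08 ± 0.48, adjusted p = 0.077). Under DRF the differences of Rn7sk, Rpph1, Rn7s1 and Rmrp were 1.13, 1.23, 0.57 and 0.21, with adjusted p = 0.051, 0.011, 0.14 and 0.65. Those of Rn7s2 and Rn7s6 were 1.36 and 0.83 (limma adjusted p = 0.070 and 0.22).

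Among all gene types the 2 most negative fitted values were those of annotated miRNA genes inside 7SL genes, from which their reads cannot be told apart. Gm47287 (chr12:69159437-69159506, inside Rn7s1) had 108, 686, 527 and 890.3 scaled counts at ZT20, and Gm47305 (chr12:69361270-69361339, inside Rn7s2) had 468, 737, 545 and 0.00169. Both held exactly 1 rebuilt count in each of the 4 ZT8 libraries. At ZT20 Rn7s2 was highest, at 2121, in the library where Gm47305 was lowest, and Rn7s1 was highest, at 2366, where Gm47287 was lowest. Under DRF Gm47287 had means of 0.00202 at ZT8 and 476 at ZT20 (limma log2 -6.74, adjusted p = 8.5e-04). Gm47305 had 0.00202 and 485 there (log2 -6.95, adjusted p = 0.0093). The interaction passed for neither (adjusted p = 0.54 and 0.99). The part of read assignment in these values and in the differences of Rn7s1 and Rn7s2 was not tested. Pcdhga2, a protocadherin, had 2.36, 3.14, 2.69 and 93.1 at ZT8 and 1.8, 0.897, 1.8 and 1.32 at ZT20 (adjusted p = 0.017), with replicate 4 far above the other ZT8 libraries. Gm21981 had 11.6, 12.1, 12 and 11.7 at ZT8 and 9.97, 10.1, 0.161 and 0.138 at ZT20.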
